A study of Caenorhabditis elegans with 24 samples.

Results

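Yolk is the main store that a *Caenorhabditis elegans* mother passes to her eggs, and its protein part comes from the vitellogenin genes. The genes described here were picked by name, as a family and its receptor. They are the 6 vitellogenin genes vit-1 (K09F5.2), vit-2 (C42D8.2), vit-3 (F59D8.1), vit-4 (F59D8.2), vit-5 (C04F6.1) and vit-6 (K07H8.6), and the yolk receptor gene rme-2 (T11F8.3), 7 of the 45461 genes in the table. All 7 passed the filter on low values, which 8478 genes passed. Vitellogenins are large lipid-carrying proteins that the intestine of the adult hermaphrodite makes and secretes into the body cavity. Growing oocytes take them up through RME-2, a receptor of the LDL receptor family, by clathrin-dependent endocytosis. vit-1 to vit-5 encode the larger yolk polypeptides, while vit-6 encodes a precursor that is cleaved into the pair of smaller ones.

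Whole worms were sampled in 6 groups of 4 libraries. AL were wild-type N2 worms fed ad libitum on the OP50 strain of Escherichia coli, DR were N2 worms under dietary restriction on the same bacteria diluted, and DM were daf-2;rsks-1 double mutants on the ad libitum diet. The alleles of DM are not given in the sources used here, and DM differed from DR in both strain and diet. Each was raised at 20 °C and placed on its diet at day 1 of adulthood on plates with FUdR, a drug that blocks the formation of new progeny. The series' design text puts lysis at day 4 of adulthood, while the study's methods give 4 days on the diet, so the age is uncertain by a day. In the labels the food was 10 to the power of 11 colony-forming units for AL and 10 to the power of 9 for DR. The methods of the study print the AL density for both diets, so the degree of dilution rests on the labels alone. From each, total mRNA (TO) and translated mRNA (TR), the RNA bound to polysomes in a sucrose gradient, were sequenced after poly(A) selection with an unstranded kit. Values are given as CPM, each gene's reads scaled to a common library total and then, by the authors, for library composition. The libraries held 7960544 to 15658505 reads on genes, so the least abundant member value (vit-1 in DR total mRNA) still rested on 784 to 985 reads per library. In the DM libraries the mRNA of rsks-1, the worm S6 kinase gene, was at 13.7 ± 0.87 CPM in total mRNA against 81.5 ± 4.19 in AL (SD, n = 4). Levels of daf-2, the insulin receptor gene, were 51.8 ± 1.26 in DM against 53.5 ± 2.91 CPM in AL, so that its mRNA does not check the label. Reads on rRNA genes took 11.5 to 20.9% of the DR translated libraries and 0.517 to 7.77% of the others. Libraries were made from whole animals, so fewer cells of a type and less RNA per cell cannot be told apart in any value below.

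vit-1 to vit-5 lie on chromosome X and vit-6 and rme-2 on chromosome IV. vit-3 and vit-4 are neighbours on the same strand with no coding gene between them. The exons of the 6 vitellogenin genes add up to 4870 to 5088 bases and those of rme-2 to 2867 bases. Within the family, vit-1 and vit-2 are near-identical in sequence, as are vit-3, vit-4 and vit-5. How reads that match several copies were counted is not given in the sources used here, so the split of reads among these copies is uncertain, and the weakly counted copies vit-1, vit-3 and vit-4 are the most exposed. vit-2 also overlaps C42D8.9 by 11 exon bases, vit-3 the non-coding gene T27A10.8 by 171 and vit-4 the non-coding gene F59D8.3 by 150, and unstranded reads there cannot be assigned to one gene.

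Levels differed widely among copies of the family. Per kb of exon in AL total mRNA, vit-2 stood at 3513 ± 109 CPM per kb (SD, n = 4), the 31st of 8421 genes ranked. vit-6 followed at 2390.1 ± 105 and vit-5 at 1261 ± 34.8 CPM per kb, ranks 63 and 109. The other copies were far lower in CPM per kb: 183 ± 1.78 for vit-4, 128 ± 2.92 for vit-3 and 38.1 ± 1.54 for vit-1. rme-2, expressed in the germ line rather than in the intestine, was at 322 ± 6.42 CPM per kb, rank 368. rme-2 thus lay between vit-5 and vit-4 in this order, and no neighbours overlapped between libraries.

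Taken as a family, vitellogenin mRNAs were a large part of what was sequenced. vit-1 to vit-6 took 3.64, 3.68, 3.82 and 3.83% of the reads on genes in AL total mRNA and 2.41 to 2.53% in DR total mRNA. The DM total libraries held 3.53 to 3.77%, which overlapped AL. Under DR the share fell by 1.27 percentage points in total mRNA (p = 0.0286 by a two-sided exact permutation test, which is as low as 4 libraries against 4 can reach, and adjusted p = 0.0367 over 9 comparisons). In DM total mRNA the share was 3.66 ± 0.127% against 3.74 ± 0.0962% in AL, and the difference did not pass (exact permutation p = 0.343, adjusted p = 0.343).

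In translated mRNA the order of the groups was another one. The AL translated libraries held 3.53 to 4.11% and the DR libraries 3.06 to 3.35% of reads on vitellogenins, while DM held 2.20 to 2.33%, below every other translated library. The DM share was lower than AL by 1.62 and lower than DR by 0.918 percentage points (exact permutation adjusted p = 0.0367 each). The DR translated share was below AL by 0.707 points with the same p, but this did not hold without rRNA reads in the total, where DR was at 3.81 ± 0.0602% and AL at 4.05 ± 0.167% (adjusted p = 0.0735). Between pools, the translated share exceeded the total share by 0.732 points under DR, was lower by 1.37 points in DM (exact permutation adjusted p = 0.0367 each), and in AL was 3.91 ± 0.256% against 3.74 ± 0.0962% (adjusted p = 0.321).

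**Figure D1:**
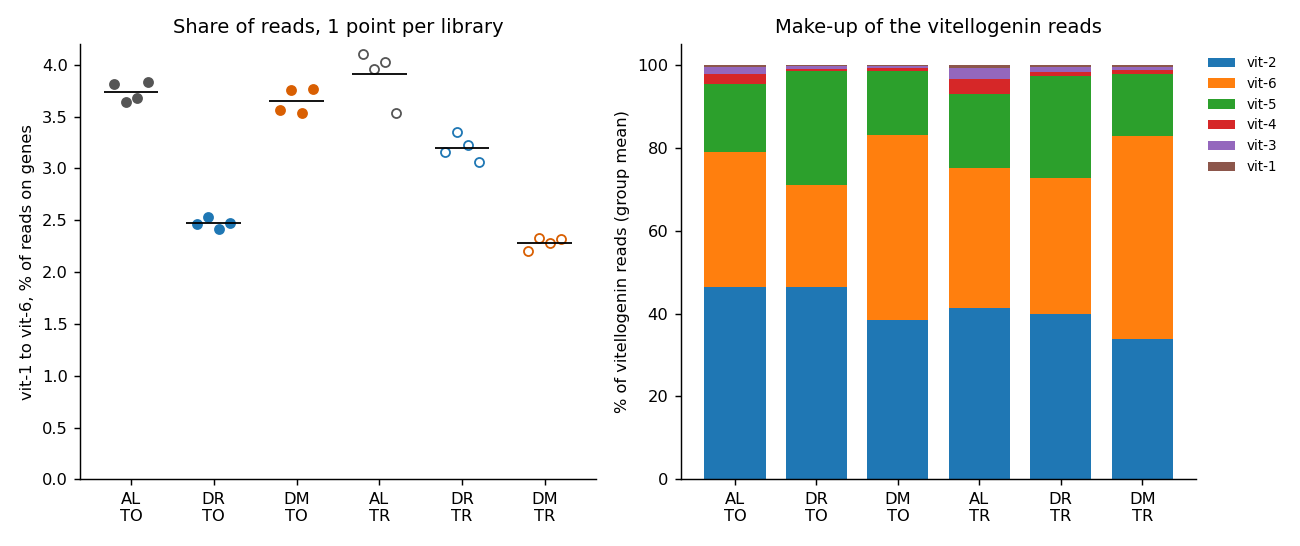
Left, percent of all reads on genes that fell on vit-1 to vit-6, 1 point per library, in the 6 groups (TO total, TR translated mRNA), with lines at the means; right, stacked bars of the mean percent of vitellogenin reads on each gene. DR lies lowest among the total libraries (2.41 to 2.53%) and DM lowest among the translated ones (2.20 to 2.33%), and vit-2, vit-6 and vit-5 make up nearly the whole of every bar.

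The make-up of the family also differed between groups. Of the vitellogenin reads in AL total mRNA, vit-2 took 46.5 ± 0.272%, vit-6 32.4 ± 0.427% and vit-5 16.5 ± 0.131%, and vit-4, vit-3 and vit-1 together the small rest. Under DR vit-5 took 27.6 ± 0.167% of the total vitellogenin reads and vit-6 24.6 ± 0.171%. In DM the order at the top was reversed, with vit-6 at 44.6 ± 0.256% and vit-2 at 38.3 ± 0.136% in total mRNA, and vit-6 at 48.8 ± 0.297% in translated mRNA. The reads on vit-1 to vit-5 were thus 2.08 ± 0.0407 times those on vit-6 in AL total mRNA, 3.07 ± 0.0282 times under DR and 1.24 ± 0.0129 times in DM. Of 54 tests of such percentages, 52 passed (exact permutation test with Benjamini-Hochberg adjustment). Each of the 52 sat at the smallest p that 4 libraries against 4 allow (exact permutation p = 0.0286, adjusted p = 0.0297). Passing thus means only that the libraries of the groups did not overlap, and no such share was computed for other genes. The percentages of a library add up to a fixed whole, so the tests are not separate results. The other two were vit-2 in DR against AL total mRNA (46.4 ± 0.21% under DR) and vit-6 in DR against AL translated mRNA (32.7 ± 0.353% against 33.6 ± 0.442%).

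The first question was what restriction of food did to these mRNAs. In total mRNA, 5 of the 7 genes were lower in DR at an adjusted p under 0.05 and at least 2-fold (limma on log2(CPM + 0.5) over all 24 libraries, Benjamini-Hochberg over 8478 genes), where 8.19% of all tested genes were lower by that rule. None of the 7 was higher, as 3.69% of all genes were. The median log2 change of the 6 vitellogenin genes was -1.30, and that of all tested genes -0.07. In the translated pool 3 of the 7 were lower, with 8.16% of all genes, and none was higher, with 7.23%. The vitellogenin median there was -0.46 against -0.10 over all genes. All 7 had an adjusted p under 0.05 (limma) in both pools, as 79.9% of all tested genes did in total and 82.0% in translated mRNA. Such a p alone therefore does not set a gene apart here.

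vit-4 fell furthest. Its total mRNA was at 908, 900.0, 897 and 916 CPM in the AL libraries and at 125, 112, 124 and 118 in the DR libraries. In translated mRNA vit-4 was at 1517, 1514, 1469 and 1428 CPM in AL and at 367, 343, 361 and 346 in DR. No DR library came near an AL library in either pool. The fall was 7.54-fold in total mRNA (log2 change -2.91 ± 0.03 SE, adjusted p = 1.4e-40) and 4.18-fold in translated mRNA (log2 change -2.06 ± 0.03, adjusted p = 2.0e-35).

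vit-3, next to it on the chromosome, moved likewise. It was at 647, 635, 613 and 628 CPM in AL total mRNA and at 158, 166, 159 and 170.4 in DR. Its translated mRNA was at 1214, 1174, 1180.2 and 1099.6 CPM in AL and at 457, 474, 458 and 457 in DR. Again every DR library was below every AL library, with a 3.85-fold fall in total mRNA (log2 change -1.95 ± 0.04, adjusted p = 6.1e-33) and a 2.52-fold fall in translated mRNA (-1.34 ± 0.04, adjusted p = 1.4e-27).

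vit-1, the least abundant copy, was at 189.6, 185, 199 and 202 CPM in AL total mRNA and at 65.7, 61.7, 66.6 and 69.5 in DR, a 2.93-fold fall (log2 change -1.55 ± 0.04, adjusted p = 3.3e-29). Translated vit-1 was at 357, 360.1, 358 and 331 CPM in AL and at 215, 217, 219 and 216 in DR. The groups did not overlap, yet the difference stayed short of 2-fold in the translated pool (log2 change -0.70 ± 0.04, adjusted p = 2.4e-18).

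vit-6 was lower under DR in one pool only by the 2-fold rule. In total mRNA it was at 12344, 11307, 12433 and 12329 CPM in AL and at 5819, 5879.8, 5739 and 5888 in DR. In translated mRNA vit-6 was at 15272, 14397, 14740.0 and 13065 CPM in AL and at 11863, 12331, 12622 and 12547 in DR. The groups were apart in both pools, widely in total mRNA and narrowly in translated mRNA. The total mRNA fell 2.07-fold (log2 change -1.05 ± 0.05, adjusted p = 1.1e-21), while the translated mRNA was at a log2 change of -0.22 ± 0.05 (adjusted p = 5.1e-05). In plain CPM, without the composition factors, the total change of vit-6 was -0.999 and no longer reached 2-fold.

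The other abundant copies moved less. vit-2 was at 17708, 16554, 17402 and 17672 CPM in AL total mRNA and at 11078, 11159, 10669.5 and 11073 in DR. Translated vit-2 was at 18569, 17749, 18000.3 and 16468 CPM in AL and at 14738, 15168, 15474 and 14996 in DR. DR was below AL in every library of both pools, by log2 changes of -0.66 ± 0.04 (adjusted p = 2.6e-16) and -0.23 ± 0.04 (adjusted p = 1.0e-05), both short of 2-fold.

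vit-5 alone among the vitellogenins was not lower under DR. It was at 6259, 5891, 6234 and 6179.6 CPM in AL total mRNA and at 6502, 6668, 6348 and 6629 in DR. Its translated mRNA was at 7993, 7791, 7775 and 7185 CPM in AL and at 9030.1, 9532, 9296 and 9369.8 in DR. Every DR library lay above every AL library, by log2 changes of 0.09 ± 0.04 in total mRNA (adjusted p = 0.0288) and 0.28 ± 0.04 in translated mRNA (adjusted p = 3.0e-08), neither of them near 2-fold. Counted from the lowest, these changes lay at percentiles 61.8 and 73.1 of all tested genes.

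The receptor was lower in both pools, and more so in the translated one. rme-2 was at 919, 901, 931 and 945 CPM in AL total mRNA and at 459, 448, 432 and 459.8 in DR. Translated rme-2 was at 591, 612, 604 and 579 CPM in AL and at 189, 206, 190.1 and 194 in DR. The groups were far apart, with a 2.05-fold fall in total mRNA (log2 change -1.04 ± 0.03, adjusted p = 8.5e-26) and a 3.06-fold fall in translated mRNA (-1.61 ± 0.03, adjusted p = 8.8e-32). Under plain CPM the total change of rme-2 was -0.98, just short of 2-fold.

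**Figure D2:**
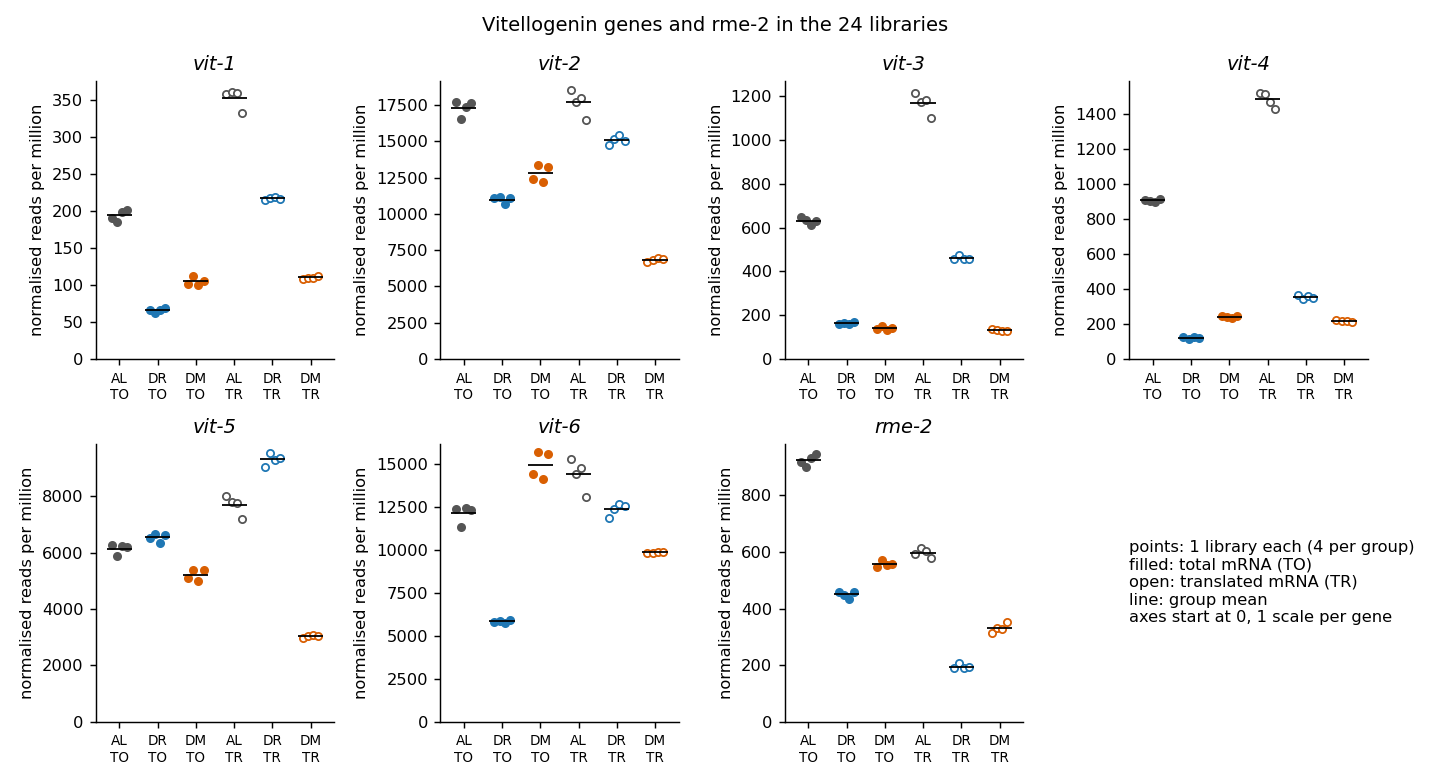
CPM of each gene (axes from 0, 1 scale per gene) in the 24 libraries, filled points for total (TO) and open points for translated mRNA (TR), with lines at the group means. vit-4 drops from between 897 and 916 CPM in AL to between 112 and 125 in DR total mRNA, vit-5 does not drop under DR, and vit-6 is highest in DM total mRNA (14128 to 15655 CPM).

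The second question was what the double mutant did, compared with AL. In total mRNA 2 of the 7 genes were lower by the same rule, where 3.35% of all tested genes were, and none was higher, with 4.48% of all genes. In translated mRNA 5 of the 7 were lower, with 6.16% of all genes. The vitellogenin medians were -0.66 in total and -1.52 in translated mRNA, against -0.11 and -0.08 over all genes. All 7 had an adjusted p under 0.05 (limma) in both pools, as 77.7% and 78.9% of all tested genes did. DM and DR were compared with the same AL libraries, so the changes of each against AL share those controls.

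vit-3 and vit-4 were the copies lower in both pools of DM. vit-3 was at 135, 150.2, 131 and 141.8 CPM in total mRNA and at 137, 133, 126 and 128 in translated mRNA. vit-4 was at 243, 237, 235 and 245 CPM in total mRNA and at 222, 216, 216 and 212 in translated mRNA. All of these were below every AL library of the same pool. vit-3 fell 4.52-fold in total mRNA (log2 change -2.18 ± 0.04, adjusted p = 4.4e-34) and 8.87-fold in translated mRNA (-3.15 ± 0.04, adjusted p = 3.6e-39). vit-4 fell 3.77-fold (-1.91 ± 0.03, adjusted p = 3.6e-34) and 6.84-fold (-2.77 ± 0.03, adjusted p = 3.2e-39).

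vit-1, vit-2 and vit-5 were lower by the 2-fold rule only in the translated pool. In DM, vit-2 was at 12432, 13404, 12235 and 13216 CPM in total mRNA and at 6698, 6851, 6949 and 6870.1 in translated mRNA. vit-5 was at 5084, 5398, 4991 and 5387 CPM in total mRNA and at 2984, 3027, 3079 and 3038 in translated mRNA. vit-1 was at 101, 112, 99.8 and 106 CPM in total mRNA and at 108, 109.8, 110.0 and 112 in translated mRNA. Each was below AL in every library. Against AL the total changes were -0.44 ± 0.04 for vit-2 (adjusted p = 2.4e-11), -0.24 ± 0.04 for vit-5 (adjusted p = 8.3e-07) and -0.89 ± 0.04 for vit-1 (adjusted p = 3.0e-21). In translated mRNA vit-2 fell 2.58-fold, vit-5 2.53-fold and vit-1 3.18-fold (log2 changes -1.37, -1.34 and -1.67, SE 0.04 each, adjusted p of 4.6e-26, 1.6e-27 and 4.7e-30).

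vit-6 differed in sign between the pools. In DM total mRNA it was at 14367, 15655, 14128 and 15551 CPM, above every AL library (log2 change 0.30 ± 0.05, adjusted p = 2.9e-07). Translated vit-6 was at 9819, 9821, 9850.3 and 9872 CPM, below every AL library (log2 change -0.54 ± 0.05, adjusted p = 2.9e-13). Neither difference reached 2-fold.

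The receptor gene was lower than AL in both pools without reaching 2-fold. rme-2 was at 545, 573, 555 and 559 CPM in DM total mRNA (log2 change -0.73 ± 0.03, adjusted p = 1.0e-20) and at 314, 329.6, 329 and 351 in DM translated mRNA (-0.85 ± 0.03, adjusted p = 5.0e-23). Both sets of 4 libraries lay below AL and above DR.

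**Figure D3:**
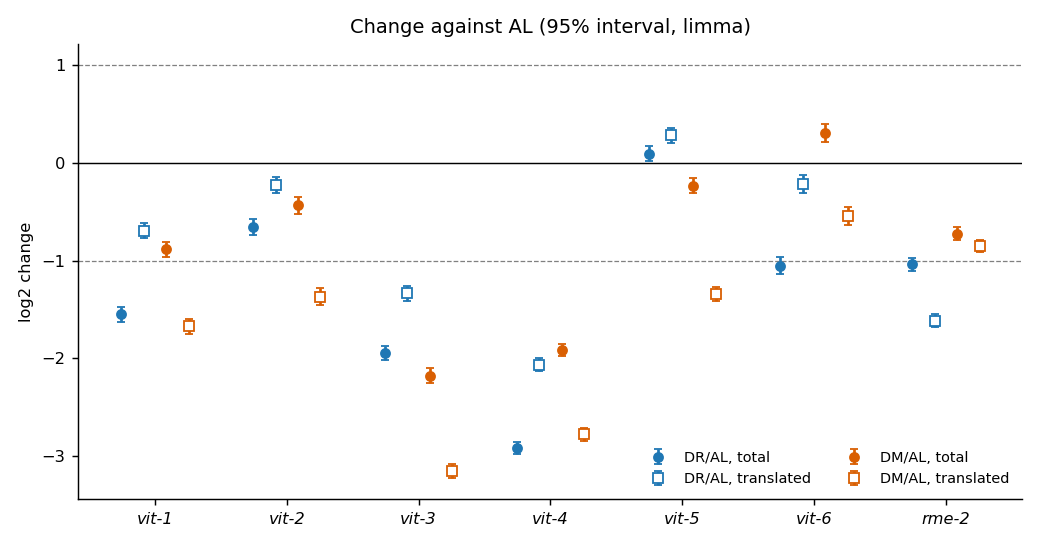
Log2 change against AL with 95% confidence intervals (limma) for the 7 genes, filled circles for total and open squares for translated mRNA, blue for DR and orange for DM; dashed lines mark 2-fold. For each vitellogenin the DR square lies above the DR circle and the DM square below the DM circle, and rme-2 has its lowest point in DR translated mRNA (-1.61).

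Compared with each other, restricted worms and double mutants differed in a pool-dependent way. In total mRNA 2 of the 7 were higher in DM than in DR, with 9.84% of all genes, and none was lower, with 5.28%. vit-6 was 2.56-fold higher (log2 difference 1.35 ± 0.05, adjusted p = 3.0e-25). vit-4 was 2-fold higher at the edge of the rule (1.001 ± 0.03, adjusted p = 1.3e-25), and lost the call when DR total replicate 2 or 4 or DM total replicate 1 or 4 was left out, with log2 differences of 0.970 to 0.995. The other differences in total mRNA were 0.66 for vit-1, 0.22 for vit-2, 0.31 for rme-2, -0.23 for vit-3 and -0.33 for vit-5. All 7 had an adjusted p under 0.05 (limma) in this comparison, as 82.2% of all tested genes did.

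In translated mRNA 3 of the 7 were lower in DM than in DR, with 8.43% of all genes, and none was higher, with 8.65%. These were vit-3 (3.51-fold, log2 difference -1.81 ± 0.04, adjusted p = 7.1e-32), vit-5 (3.07-fold, -1.62 ± 0.04, adjusted p = 3.2e-30) and vit-2 (2.21-fold, -1.14 ± 0.04, adjusted p = 9.3e-24). vit-1 was at -0.97 and vit-4 at -0.71, and rme-2 was higher in DM at 0.76. Here too all 7 had an adjusted p under 0.05 (limma), as 83.0% of all tested genes did. The calls of vit-2 and rme-2 and the sign of vit-6 depended on the scaling. In plain CPM the difference of vit-2 was -0.72, that of rme-2 was 1.18, and that of vit-6 turned from -0.33 to 0.09. Plain CPM shifted the median of all genes in this comparison by 0.41.

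Ordered over all 6 groups, vit-5 had its highest level in DR translated mRNA, while vit-1, vit-2, vit-3 and vit-4 had theirs in AL translated mRNA, vit-6 in DM total and rme-2 in AL total mRNA. The lowest level was that of DM translated mRNA for vit-2, vit-3 and vit-5, that of DR total mRNA for vit-1, vit-4 and vit-6, and that of DR translated mRNA for rme-2. Some neighbours in these orders overlapped between libraries. They were AL translated and total for vit-2, DM total and translated for vit-1 and for vit-3, and, for vit-6, DM total with AL translated and DR translated with AL total mRNA.

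The third question was how much of each mRNA was found on polysomes relative to total mRNA. A log2 ratio of translated to total mRNA above 0 means a larger share of the translated pool than of the total pool, relative to the other mRNAs in that pool. In AL none of the 7 genes differed by 2-fold in either direction, with 4.72% of all genes higher and 11.8% lower in translated mRNA. Here 6 of the 7 had an adjusted p under 0.05, as 86.3% of all tested genes did. The ratios in AL ran from 0.03 ± 0.04 for vit-2 (adjusted p = 0.528) to 0.89 ± 0.04 for vit-3 (adjusted p = 3.7e-22), and rme-2 was at -0.63 ± 0.03 (adjusted p = 2.9e-19). Under other scalings the vit-2 ratio turned negative, to -0.11 in plain CPM.

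Under DR 4 vitellogenins were at least 2-fold higher in translated than in total mRNA, with 16.6% of all genes, and rme-2 was lower, with 16.5% of all genes. The ratios were 1.71 ± 0.04 for vit-1 (3.28-fold, adjusted p = 6.6e-31), 1.56 ± 0.03 for vit-4 (2.95-fold, adjusted p = 5.5e-32), 1.495 ± 0.04 for vit-3 (2.82-fold, adjusted p = 1.4e-29) and 1.08 ± 0.05 for vit-6 (2.12-fold, adjusted p = 1.5e-22). For vit-2 and vit-5 they were 0.46 and 0.51. rme-2 was at -1.21 ± 0.03 (2.31-fold lower, adjusted p = 2.8e-28). In plain CPM the ratio of vit-6 was 0.78, under 2-fold, with the median of all genes shifted by -0.29.

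In DM none of the 7 differed by 2-fold, with 4.48% of all genes higher and 10.0% lower in translated mRNA, and 6 of the 7 had an adjusted p under 0.05, as 84.5% of all genes did. The abundant copies had negative ratios there: -0.91 ± 0.04 for vit-2 (adjusted p = 1.3e-20), -0.78 ± 0.04 for vit-5 (adjusted p = 2.4e-20) and -0.60 ± 0.05 for vit-6 (adjusted p = 1.4e-14). vit-1, vit-3 and vit-4 were near 0, at 0.08 (adjusted p = 0.0704), -0.09 (adjusted p = 0.0308) and -0.15 (adjusted p = 8.0e-05), and the sign of vit-3 turned to 0.02 under median-ratio scaling. The ratio of rme-2 was -0.75 ± 0.03 (adjusted p = 1.6e-21). The median over the 6 vitellogenins was 0.52 in AL, 1.29 in DR and -0.38 in DM, against 0.03, -0.04 and -0.01 over all tested genes. Among the marker genes listed below, the median ratio of the 9 intestinal genes was 0.78 in AL, 1.17 in DR and 0.27 in DM. That of the 17 oocyte and proximal germline genes was -1.03, -1.54 and -0.97. Under DR 5 of the 9 intestinal genes were at least 2-fold higher in translated mRNA, with 16.6% of all genes. Of the 17 oocyte genes 14 were lower, with 16.5% of all genes, and 1 was higher.

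**Figure D4:**
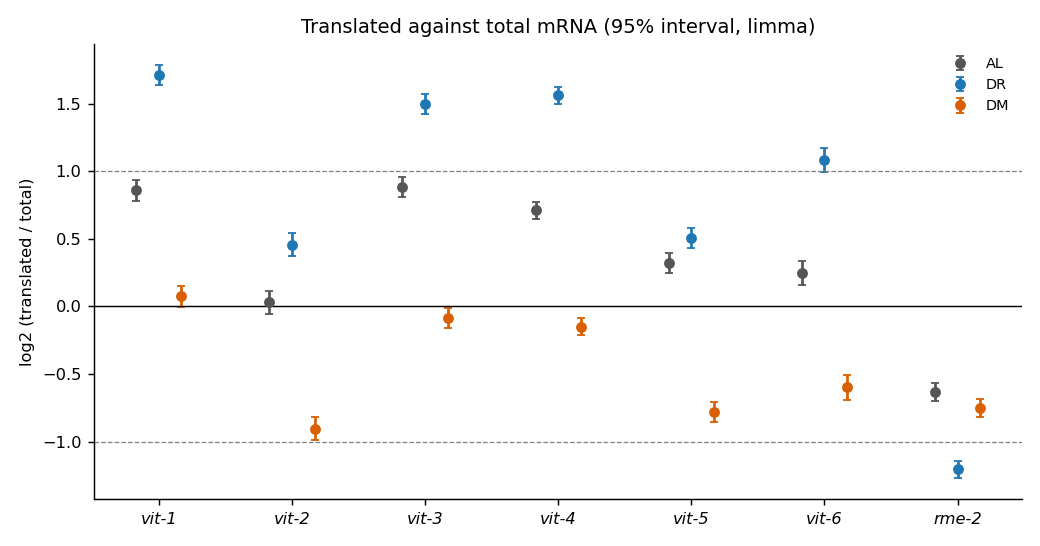
Log2 ratio of translated to total mRNA for the 7 genes with 95% confidence intervals (limma) in AL (grey), DR (blue) and DM (orange); dashed lines mark 2-fold. For all 6 vitellogenins the order is DR above AL above DM, and for rme-2 DR is lowest at -1.21.

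Whether these ratios differed between conditions was tested by an interaction, the DPAR (differential polysome association ratio) of one condition against another. For DR against AL none of the 7 reached 2-fold, where 3.92% of all genes were higher and 1.83% lower. All 6 vitellogenins had positive values at an adjusted p under 0.05, as 67.2% of all genes did in either direction. These were 0.85 ± 0.06 for vit-1, 0.43 ± 0.06 for vit-2, 0.61 ± 0.05 for vit-3, 0.85 ± 0.05 for vit-4, 0.19 ± 0.05 for vit-5 (adjusted p = 0.00252) and 0.83 ± 0.06 for vit-6. That of vit-5 no longer passed in plain CPM (0.0240, adjusted p = 0.746) or without vitellogenin reads in the total (0.0323, adjusted p = 0.666). The 6 vitellogenin values lay between percentiles 62.9 and 93.5 of the tested genes, counted from the lowest. Their median was 0.72, against 0.02 over all genes. The value of rme-2 was -0.57 ± 0.05 (adjusted p = 4.6e-13).

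For DM against AL the direction was the opposite. Only vit-5 passed both the test and the 2-fold limit, with a DPAR of -1.10 ± 0.05 (2.15-fold lower, adjusted p = 6.2e-19), where 1.21% of all genes were lower and 0.613% higher. The other copies came close, at -0.97 ± 0.05 for vit-3, -0.93 ± 0.06 for vit-2, -0.86 ± 0.05 for vit-4, -0.85 ± 0.06 for vit-6 and -0.78 ± 0.06 for vit-1. All 6 lay between percentiles 0.566 and 2.85 of the tested genes, counted from the lowest, and their median was -0.90 against -0.01 over all genes. rme-2 was at -0.12 ± 0.05 (adjusted p = 0.027). In plain CPM, which shifted the median of all genes by 0.18, vit-5 was at -0.92 and no gene of the 7 passed, and rme-2 turned to 0.06. Leaving out 1 library at a time gave 1 or 2 genes, vit-3 passing at -1.002 without AL translated replicate 4 and at -1.005 without DM total replicate 3.

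Set directly against DR, a contrast added after the values had been seen, the DPAR of DM was lower by at least 2-fold for all 6 vitellogenins, where 5.26% of all genes were lower and 2.54% higher. The values were -1.71 ± 0.05 for vit-4 (3.28-fold, adjusted p = 4.2e-27), -1.68 ± 0.06 for vit-6 (3.21-fold), -1.64 ± 0.06 for vit-1 (3.11-fold), -1.58 ± 0.05 for vit-3 (2.996-fold), -1.36 ± 0.06 for vit-2 (2.57-fold) and -1.29 ± 0.05 for vit-5 (2.45-fold). The median was -1.61, against -0.03 over all genes. rme-2 went the other way, at 0.45 ± 0.05 (adjusted p = 1.7e-10). So did the median of the 17 oocyte and proximal germline genes listed below, at 0.50. In plain CPM vit-5 was at -0.94 and 5 vitellogenins passed, and without vitellogenin reads in the total vit-5 was at -0.975, also under 2-fold. The share of rRNA reads was highest in the DR translated libraries, so it cannot be told apart from this contrast, and its part was not tested. Taking rRNA reads out of the total only rescales each library, and all 6 passed on that scale.

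The genes around this pathway were taken from lists. Among 10 regulators of vitellogenin transcription, such as the GATA factor elt-2, the repressor mab-3 and the homeodomain factors unc-62 and ceh-60, 8 were abundant enough to test. None of the 8 differed by 2-fold in DR against AL in either pool. An unadjusted and an adjusted p under 0.05 (limma) was reached by 5 of them in total and 8 in translated mRNA, where 79.9% and 82.0% of all tested genes had such an adjusted p. The largest differences there were 0.56 ± 0.07 for the kinase gene sgk-1 and -0.50 ± 0.05 for rict-1, a subunit gene of TOR complex 2, in total mRNA. In DM none of the 8 passed in total mRNA, with ceh-60 at -0.96 ± 0.11 and sgk-1 at -0.53, and 1, ceh-60, was lower in translated mRNA (log2 change -1.06 ± 0.11, adjusted p = 2.9e-11), with 6.16% of all genes. The median changes of the list in the same order were 0.04, 0.34, -0.24 and -0.19. dsc-4, which encodes the microsomal triglyceride transfer protein that loads lipid onto vitellogenins, did not reach 2-fold in any of these (0.12 ± 0.08 in DR and 0.81 ± 0.08 in DM total mRNA).

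Of 13 genes for receptor endocytosis and recycling, all tested, none differed by 2-fold in DR against AL. An unadjusted and an adjusted p under 0.05 (limma) was reached by 7 in total and 8 in translated mRNA, smaller shares than the 79.9% and 82.0% of all genes. The furthest in total mRNA were rab-35, a GTPase gene of receptor recycling, at -0.55 ± 0.05 and rme-6 at 0.49 ± 0.06. In DM total mRNA 1 was higher, dyn-1, which encodes dynamin (log2 change 1.08 ± 0.07, adjusted p = 8.3e-17), with 4.48% of all genes, and none in translated mRNA. The median changes were -0.06 and -0.11 in DR and -0.01 and 0.03 in DM, in total and translated mRNA. The changes of rme-2 in DR were larger than that of any gene on this list.

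Marker genes of the tissues that make and take up yolk were counted by the same rule. Of 17 oocyte and proximal germline genes, 2 were lower in DR total mRNA, chs-1 (chitin synthase of the eggshell) at -1.28 ± 0.04 and the oocyte maturation gene oma-2 at -1.27 ± 0.03, near the share of all genes (8.19%). In DR translated mRNA 8 of 17 were lower, with 8.16% of all genes, chs-1 at -2.03 ± 0.04 and egg-2 at -1.99 ± 0.04 the most. In DM none of the 17 was lower in total mRNA, with 3.35% of all genes and 16 of the 17 at an unadjusted and an adjusted p under 0.05 (limma). In DM translated mRNA 1 was lower, egg-2 at -1.07 ± 0.04, near the 6.16% of all genes. Summed, the list stood at 21772 to 22650 CPM in AL total mRNA, 16027 to 16714 in DR and 14538 to 15488 in DM, with no gene at 0. rme-2 lay within the range of these genes in each comparison, and the part of oocyte number in its change was not tested. The median DPAR of the 17 genes was -0.40 for DR against AL, 0.16 for DM against AL and 0.50 for DM against DR. That of rme-2 was -0.57, -0.12 and 0.45.

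Of 9 intestinal genes, 2 were lower in DR total mRNA, the esterase gene ges-1 at -1.61 ± 0.07 and the protease gene cpr-6 at -1.21 ± 0.03, and 1 in DR translated mRNA, ges-1 at -1.21, where 8.19% and 8.16% of all genes were lower. In DM total mRNA 2 were lower, with 3.35% of all genes, the protease gene asp-1 at -1.99 ± 0.04 and the peptide transporter gene pept-1 at -1.69 ± 0.09, and 1 was higher, ges-1 at 1.14 ± 0.07, with 4.48% of all genes. In DM translated mRNA 5 were lower, with 6.16% of all genes, asp-1 at -2.14 and pept-1 at -1.79 the most. Summed, the list was at 2588 to 2676 CPM in AL, 1836 to 1919 in DR and 1766 to 1866 in DM total mRNA, and at 4410.2 to 4705, 4478 to 4810.5 and 2333 to 2420.1 in translated mRNA. The median DPAR of the 9 genes was 0.52 for DR against AL, -0.18 for DM against AL and -0.71 for DM against DR. The part of these shifts in the changes of the vitellogenins was not tested. Of 6 body wall muscle genes 4 were higher in DR total and 6 in DR translated mRNA, with 3.69% and 7.23% of all genes. The sperm list was low, at 1.25 to 7.08 CPM in all.

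**Figure D5:**
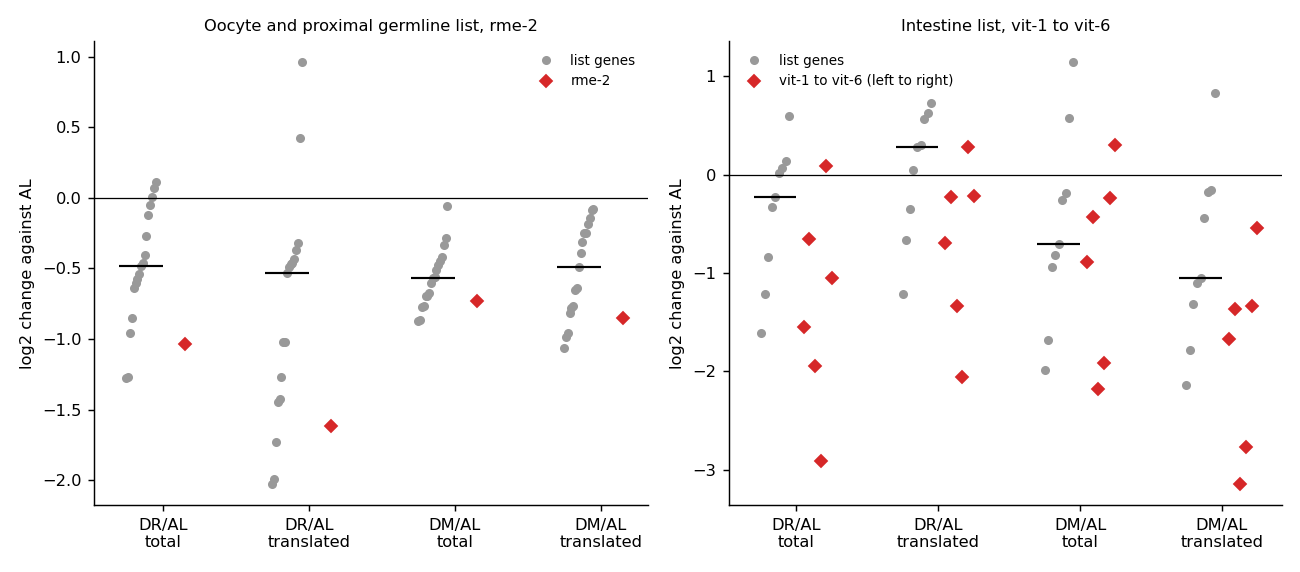
Log2 change against AL of the listed marker genes (grey points, line at their median) and of the members (red diamonds): left, 17 oocyte and proximal germline genes with rme-2; right, 9 intestinal genes with vit-1 to vit-6 from left to right. rme-2 lies inside the range of the oocyte genes in all 4 comparisons. vit-3 lies below every intestinal gene listed in all 4, furthest in DM translated mRNA (-3.15). vit-4 lies below them in DR total (-2.91), DR translated (-2.06) and DM translated mRNA (-2.77), but not in DM total mRNA (-1.91).

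Over the 24 libraries, the copies differed in which other mRNAs they resembled most, by Pearson r of log2(CPM + 0.5). These r are descriptions over 24 libraries in 6 groups that share their group means. rme-2 was most like egg-2 (r = 0.991), chs-1 (r = 0.989) and the nuclease gene exo-1 (r = 0.984). The 3 genes most like vit-1 were bcf-1 (0.984), T21H3.1 (0.979) and the C-type lectin gene clec-150 (0.974). vit-3 was most like numr-1 (0.984), F14H12.3 (0.980) and spp-18 (0.980), and vit-4 most like Y37H2A.14 (0.984), acs-4 (0.977) and T19D12.4 (0.972).

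The abundant copies had other neighbours. vit-5 was most like F55F10.1 (r = 0.976) and the ribosomal protein genes rpl-21 (0.975) and rps-11 (0.962). rpl-21 itself was at 1984 ± 45.0 CPM in DR total and 1752 ± 28.0 in AL total mRNA, and at 1014.5 ± 99.8 in DM translated mRNA. vit-6 was most like the protease gene asp-14 (0.948), M163.1 (0.945) and dnj-7 (0.906), and vit-2 most like prp-17 (0.924), T10B5.7 (0.903) and Y113G7B.14 (0.902). Among themselves, vit-1, vit-3 and vit-4 had r of 0.914 to 0.923 with each other, while vit-5 had 0.152 with vit-6 and rme-2 had -0.0947 to 0.449 with the vitellogenins.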

How the data were processed

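Whole-worm poly(A) RNA was sequenced in 24 libraries. Per the study's methods, reads were aligned with TopHat to the WS220 genome and counted per gene with HTSeq 0.6.1, and the authors normalised them with edgeR 3.0. The deposited values are a normalised signal, CPM divided by a composition factor per library, with no filter and no rounding. These factors equal TMM factors computed over the 24 libraries. 100% of the values were whole multiples of 1 read within 0.05 reads, so reads were recovered and edgeR's count test served as an alternative (340 genes higher and 726 lower in DR against AL total mRNA, where limma called 313 and 694).

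Of 45461 genes, 19740 had no reads, and 8478 with a mean of at least 8 CPM were tested (8345 coding). limma 3.58.1 with trend was fitted in R 4.3.3 to log2(CPM + 0.5) over 6 groups, with contrasts for each comparison and interaction. Fold changes are on that scale. Calls needed an adjusted p under 0.05 and a 2-fold change. Read shares were tested by exact permutation over 70 arrangements. On simulated data for DR against AL total mRNA, 100% of 200 genes changed by a log2 of 2 were recovered among 8478 genes, with 0 false calls. The simulated reads had the same small spread for every gene, balanced changes and no difference in composition between groups. The simulation therefore checks the code and does not give an error rate for these data. Gene names, chromosomes and exon lengths came from Ensembl release 115 (44936 genes matched), whose build is not that of the counts, so no coordinates are given.

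All 7 members are named throughout. Of other lists, the 2 genes with the largest change against AL are named, and for each member the 3 genes most like it. Members and lists were chosen with earlier results of these data known. The intestine list held 10 names of which 9 matched, and the neuron and epidermis lists were not used in the text. Replicates are biological per the study's methods. The chi-square per degree of freedom of pairs of libraries ran from 1.26 to 32.0 over genes with at least 20 reads. Some pairs came close to sampling noise, such as DR total replicates 1 and 4 (1.26) and DM translated replicates 2 and 4 (1.35). AL translated replicates 2 and 4 were at 32.0. Whether the replicates of a group were equally independent was not tested. Alternatives were other pseudocounts, filters, scalings and tools, a replicate block and leaving out each library, and one scaling without rRNA reads and the contrast of DPAR between DM and DR were added after the data had been seen.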

Additional observations from a re-analysis of the deposited data

Results flagged for a closer look

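Of 48 sets of 4 libraries (7 genes and the vitellogenin share in 6 groups), 3 held a library far from the others, by Dixon's ratio above its 95% critical value, and chance gives about 1 in 20. vit-1 was at 331 CPM in AL translated replicate 4, below the others, and without it the change of vit-1 in DR against AL translated mRNA was -0.72 in place of -0.70. vit-3 was at 474 CPM in DR translated replicate 2, above the others, and its change in translated mRNA without it was -1.35. vit-6 was at 11307 CPM in AL total replicate 2, below the others, and its change in total mRNA without it was -1.08.

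Differences between conditions in the translated-to-total ratio passed the interaction test (limma, adjusted p under 0.05 and 2-fold) for vit-5 in DM against AL, at -1.10, and in DM against DR for vit-1 at -1.64, vit-2 at -1.36, vit-3 at -1.58, vit-4 at -1.71, vit-5 at -1.29 and vit-6 at -1.68.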

How the results depend on the processing

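Over 84 values for the 7 genes and 3080 alternative values, 3048 kept direction and side of the 2-fold rule, 17 lost it, 4 gained it and 11 changed sign. Many of the 3080 could not move the log2 change they were counted for. Leaving out a library outside a comparison, changing the filter or adding the balanced replicate block leaves that change as it was. The count of 3048 is therefore no measure of robustness. The count of called members in DR against AL total mRNA was 3 rather than 5 in plain CPM. That in DM against DR total mRNA was 1 rather than 2 with a pseudocount of 1 and was 1 to 2 over the libraries left out. For DPAR of DM against AL it was 0 rather than 1 in plain CPM, without vitellogenin reads and without rRNA reads (an alternative chosen after seeing the data), and 1 to 2 over the libraries left out. Signs changed for vit-6 in DM against DR translated mRNA (0.0916 in plain CPM, 0.0779 without vitellogenin reads), for the ratio of vit-2 in AL (-0.106 and -0.104 likewise, and -0.0946 without rRNA reads), for the ratio of vit-3 in DM (0.0233 under median-ratio scaling, 0.0196 in DESeq2 and 0.0059 without rRNA reads), and for the DPAR of rme-2 in DM against AL (0.0614 in plain CPM, 0.0385 without vitellogenin reads and 0.0944 without rRNA reads). The cause was not tested. The vitellogenin share in DR against AL translated mRNA differed by -0.25 points without rRNA reads (adjusted p = 0.0735). The 6 vitellogenin DPAR values kept their sign in both DR (0.02 to 0.92) and DM against AL (-1.14 to -0.57) under every alternative run.

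Plain CPM changed the percent of calls that were lower from 53.0 to 63.5 in DR against AL translated and 42.8 to 30.3 in DM against AL total. It went from 55.2 to 24.5 in DM against AL translated and 49.4 to 17.7 in DM against DR translated. In the AL and DR ratios it went from 71.4 to 89.3 and 49.8 to 70.4. For DPAR it went from 31.8 to 58.5 in DR, 66.5 to 17.8 in DM against AL and 67.5 to 20.7 in DM against DR. Median-ratio scaling changed it from 69.1 to 50.8 in the DM ratio. For DPAR that scaling gave 21.7 in DR, the other direction from plain CPM, and 51.7 in DM against AL. Without a filter, 25721 genes were tested. edgeR and DESeq2 called as many members as limma in every comparison. Replicate numbers did not pair the libraries: correlations of same-numbered libraries ran from -0.27 to 0.25, and in 14 of 15 pairs of groups none exceeded 0.1. A fit with the replicate number as a block gave the same member counts as the fit without it, such as 5 in DR against AL total mRNA, 5 in DM against AL translated mRNA and 1 in DPAR of DM against AL. For the shares, 4 pairs allow no p below 0.125. With a library left out, the shares were not tested. Each member value rested on at least 784 reads, and the effect of reads shared between near-identical copies was not tested.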
